A study of Homo sapiens with 96 samples.

Results

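The mRNAs of the 10 CCR4-NOT deadenylase subunits CNOT1, CNOT2, CNOT3, CNOT6, CNOT6L, CNOT7, CNOT8, CNOT9, CNOT10 and CNOT11 were taken from the raw count table by their gene symbols, out of 44659 entries in all. The table holds 96 libraries of cytoplasmic RNA from A375, an established human melanoma cell line with an activating BRAF mutation, prepared by QuantSeq, which reads the 3′ end of polyadenylated transcripts. All cells were first kept for 18 h either in DMSO or in MAPKi, a pair of MAPK pathway inhibitors made of the BRAF inhibitor vemurafenib (500 nM) and the MEK inhibitor cobimetinib (500 nM). Each pretreatment was then followed by a vehicle arm, a CHX arm (cycloheximide, 100 µg/ml, which stops translation elongation), a T arm (triptolide, 25 µM, which stops transcription) and a TCHX arm (both, with cycloheximide given 5 min before triptolide). RNA was collected at 0, 1, 3 and 5 h in 3 replicates, which gave 32 groups of 3 libraries. Nothing in the labels says that the replicates came from separate cultures, so the p-values measure the spread between these libraries, which may be technical.

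CCR4-NOT is the main deadenylase of the cytoplasm: it shortens the poly(A) tail of mRNAs, after which they are decapped and degraded. CNOT1 is the scaffold on which the other subunits assemble. CNOT2 and CNOT3 form the NOT module, CNOT9 (the CAF40 subunit) binds adaptor proteins of microRNA complexes, and CNOT10 and CNOT11 sit at the other end of CNOT1. The catalytic core pairs a CCR4-type nuclease, either CNOT6 or its paralogue CNOT6L, with a CAF1-type nuclease, either CNOT7 or its paralogue CNOT8. The RNA-binding proteins and adaptors that bring the complex to an mRNA include the ZFP36, PUM, TOB and BTG families.

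Library totals ranged from 2381351 to 12520154 counts with a median of 7143396. In vehicle libraries the summed level of 5 ERK pathway targets (DUSP6, SPRY4, ETV5, PHLDA1 and EGR1) ranged from 868 to 1257 CPM (the count relative to the library total, scaled by TMM) after DMSO and from 66.9 to 160 CPM after MAPKi, so that the ranges did not overlap. Of 7 melanocyte lineage markers 5 averaged over 1 CPM in both pretreatments, among them SOX10 and MITF, while MLANA and TYR stayed under 1 CPM on average. The summed melanocyte markers ranged from 619 to 1007 CPM after DMSO and from 2089 to 3699 CPM after MAPKi, with DCT alone at a mean of 49.9 and 1939 CPM. Markers of keratinocytes, fibroblasts, leukocytes and endothelial cells summed to 0.122 to 2.18 CPM after DMSO and 1.52 to 3.77 CPM after MAPKi, and KRT5 and PECAM1 were at 0 in every vehicle library.

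CNOT3 and CNOT10 were too low to test. CNOT3 had 51 counts in all 96 libraries together, at most 19 in 1 library, and a count in 15 libraries. The table also lists 9 entries with the CNOT3 symbol and a suffix, with 10 counts in all, few beside the 51 of CNOT3. Whether reads were dropped because they match several copies of the locus was not tested, so the level of CNOT3 is uncertain. CNOT10 had 127 counts, at most 9 in 1 library, a count in 57 libraries and more than 3 counts in 7 of them. A level of 3 counts corresponds to between 0.24 and 1.26 CPM depending on the library, so neither transcript was quantified at this depth, which does not show that it is absent. The other 8 subunits passed the filter on low counts and are described here.

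The mRNAs of 6 of the 8 tested subunits were lower after MAPKi and 0 were higher. The largest decreases were those of CNOT9, CNOT7 and CNOT6L, one from the CAF40 module and one from each catalytic pair. In the comparison of the 12 MAPKi with the 12 DMSO vehicle libraries, edgeR's quasi-likelihood test with Benjamini-Hochberg adjustment over 14948 genes called 35.8% of all genes higher and 33.1% lower, and 0 and 6 of the 8 subunits. With total counts or at 0 h alone 4 were lower, without CNOT1 and CNOT2. The median log2 change of the 8 subunits was -0.24, beside 0.05 for all genes tested. In bulk RNA fewer cells and less RNA per cell cannot be told apart, and each level is a share of its library.

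CNOT9 was measured at a lowest, median and highest level of 94.97, 108 and 118 CPM in the DMSO vehicle libraries. The corresponding values were 50.4, 60.6 and 66.0 CPM after MAPKi, and the ranges did not overlap. The MAPKi level was 56.9% of the DMSO level (log2 change -0.81 ± 0.04 SE, adjusted p = 7.12e-29), and it lay between 53.5% and 59.4% at each of the 4 times. The 250 bases before the start that RefSeq gives for CNOT9, shown here because this subunit changed most, are at chr2:218568589-218568838 on the plus strand (RefSeq, GRCh38.p14). GENCODE v44 places the start of the gene at 218568580, so these bases lie inside the gene by that annotation. Capitals mark matches on either strand to CCGGAA, the core letters of an ETS motif, and to TTCCCGC, the letters of an E2F motif.

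CNOT9 promoter: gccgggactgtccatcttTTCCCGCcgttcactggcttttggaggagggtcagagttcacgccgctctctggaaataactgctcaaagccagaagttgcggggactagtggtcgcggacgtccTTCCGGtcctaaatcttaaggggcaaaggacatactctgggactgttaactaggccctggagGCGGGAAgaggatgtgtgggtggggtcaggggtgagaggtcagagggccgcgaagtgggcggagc

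Matches to the ETS letters are present in 17.25% and matches to the E2F letters in 6.55% of the 35116 promoters in the table, which reach 50 bases past the start. E2F letters were also present in promoters of CNOT6 and CNOT8, which did not pass the MAPKi test, and ETS letters in a promoter of CNOT6L. Those of CNOT2 and CNOT11, which passed, held neither. Promoters of CNOT1 and CNOT7 were not examined. The matches describe these letters, no binding was measured, and a link to the MAPKi change was not tested.

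CNOT1, the scaffold, was measured at 124, 133 and 153 CPM (lowest, median, highest) after DMSO and at 101, 125 and 157 CPM after MAPKi. These ranges overlapped. Its log2 change of -0.11 ± 0.04 passed the test (adjusted p = 0.0184) but turned to 0.04 when libraries were scaled by their total counts and to 0.01 at 0 h alone. It did not pass in 6 of 9 alternatives, among them those with DESeq2 size factors, without replicate 1 and without replicate 3. On the 500 bases at the 3′ end of CNOT1 (16, minus strand) lies an exon of SETD6 on the opposite strand, with 16603 counts of its own in the table. The strand setting of the counting is not given in the sources used here, so reads of the pair may not be told apart.

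CNOT2, of the NOT module, was measured at 70.8, 76.8 and 93.3 CPM after DMSO. After MAPKi the values were 59.0, 71.2 and 77.1 CPM, within reach of the DMSO range. The log2 change was -0.17 ± 0.05 (adjusted p = 0.000844), but -0.03 with total counts, where it no longer passed, nor did it without replicate 2. The MAPKi level of CNOT2 was 96.5%, 92.0%, 76.4% and 91.8% of DMSO at 0, 1, 3 and 5 h. The groups were apart at 3 h only. CNOT11 was measured at 133, 152 and 202 CPM after DMSO and at 102, 122 and 186 CPM after MAPKi, also overlapping, with a log2 change of -0.30 ± 0.07 (adjusted p = 8.97e-05). Its MAPKi level was 77.0%, 106%, 81.7% and 65.0% of DMSO at 0, 1, 3 and 5 h. The groups were apart at 0 and 5 h only, and at 1 h CNOT11 was not lower.

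**Figure D1:**
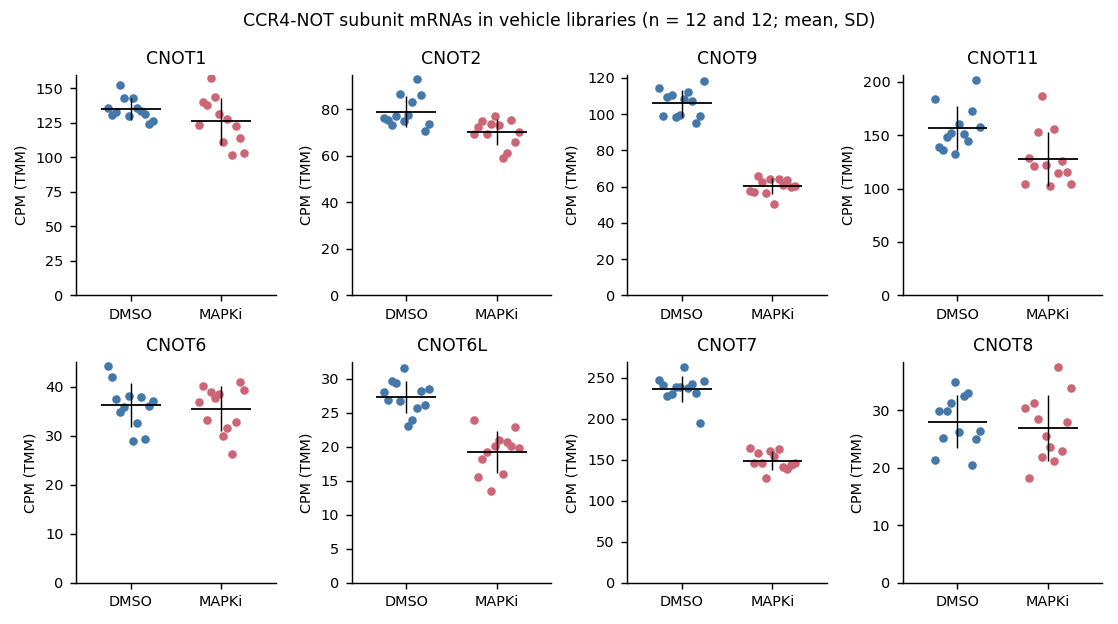
Level of each tested subunit mRNA in CPM (TMM scaling) in the 12 DMSO and 12 MAPKi vehicle libraries, with 1 point per library, a horizontal line at the mean and a vertical line of 1 SD to each side. The ranges of CNOT9 and CNOT7 are apart, those of CNOT6 and CNOT8 lie on each other, and the small shift of CNOT1 turned direction when libraries were scaled by total counts.

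Within each catalytic pair one paralogue fell and the other did not pass the test. CNOT7, a CAF1-type nuclease, was measured at 195, 239 and 263 CPM after DMSO and at 128, 146 and 164 CPM after MAPKi, without overlap. Its MAPKi level was 63.0% of the DMSO level (log2 change -0.67 ± 0.04, adjusted p = 3.22e-23) and between 61.4% and 65.2% at each time. CNOT8, its paralogue, was measured at 20.5, 28.1 and 35.0 CPM after DMSO and at 18.2, 26.8 and 37.5 CPM after MAPKi. The log2 change of CNOT8 was -0.04 ± 0.11 (adjusted p = 0.751), with a 95% interval from -0.26 to 0.17.

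Among the CCR4-type nucleases, CNOT6L was measured at 23.1, 27.5 and 31.6 CPM after DMSO. After MAPKi it was at 13.5, 19.9 and 23.99 CPM, and the groups were apart at each of the 4 times although the pooled ranges overlapped. Its log2 change was -0.50 ± 0.09 (adjusted p = 2.65e-06), a level of 70.8% of DMSO. CNOT6 was measured at 28.8, 36.5 and 44.2 CPM after DMSO and at 26.3, 37.2 and 41.0 CPM after MAPKi, with a log2 change of -0.03 ± 0.06 (adjusted p = 0.686, 95% interval -0.16 to 0.09).

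The ratio of 2 paralogues within 1 library does not depend on how libraries are scaled. The difference in the log2 ratio between groups was tested by exact permutation of the library labels within each time (two-sided, 14 comparisons, Benjamini-Hochberg adjusted). Log2 CNOT6L/CNOT6 was -0.40 ± 0.17 (SD, n = 12) after DMSO and -0.89 ± 0.32 (SD, n = 12) after MAPKi, a difference of -0.49 (exact permutation, adjusted p = 0.00184). Log2 CNOT8/CNOT7 was -3.09 ± 0.25 (SD, n = 12) after DMSO and -2.49 ± 0.31 (SD, n = 12) after MAPKi, a difference of 0.60 (exact permutation, adjusted p = 0.000875). The first ratio did not pass without replicate 1 (-0.54, exact permutation, adjusted p = 0.054) or without replicate 2 (-0.40, exact permutation, adjusted p = 0.0972). The second did not pass without replicate 1 (0.50, exact permutation, adjusted p = 0.054). The smallest p that these smaller sets allow is 0.00154 before adjustment.

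Cycloheximide raised CNOT2 in both pretreatments and moved CNOT9, CNOT6L and CNOT7 in 1 pretreatment each. Averaged over 3 and 5 h, the CHX arm against vehicle gave 1 higher and 2 lower subunits in DMSO cells (18.3% and 13.5% of all genes) and 2 higher and 0 lower in MAPKi cells (15.9% and 13.9%). At 1 h alone 0 subunits passed in either pretreatment (edgeR), when 12 genes were higher and 0 lower over the whole table in DMSO cells and 9 and 2 in MAPKi cells. The unadjusted p was under 0.05 for 4 subunits in DMSO and 2 in MAPKi cells over 3 and 5 h. The share of all genes at that unadjusted threshold is not given here, so these 2 counts have no background beside them. With total counts as scaling, the calls over all genes in MAPKi cells went from 2383 higher and 2082 lower to 3193 and 1256.

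CNOT2 was at 70.8, 73.7 and 86.2 CPM in the 3 DMSO vehicle libraries of 5 h and at 129, 137 and 140 CPM in the CHX libraries. At 3 h the vehicle values were 77.4, 83.1 and 93.3 CPM and the CHX values 98.6, 106 and 108 CPM. All CHX libraries were above all vehicle libraries of their time, and the log2 change was 0.56 ± 0.06 (adjusted p = 2.58e-11). In MAPKi cells CNOT2 was at 66.1, 70.2 and 75.5 CPM in vehicle and at 92.7, 95.6 and 97.3 CPM in CHX at 5 h, a log2 change of 0.36 ± 0.06 over both times (adjusted p = 5.82e-06). The difference between the 2 changes was -0.20 ± 0.09 and did not pass the test (adjusted p = 0.164), although it did at 5 h alone.

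CNOT9 was at 94.97, 98.9 and 118 CPM in DMSO vehicle and at 89.5, 89.7 and 108 CPM in DMSO CHX at 5 h. These values overlapped, with a log2 change over 3 and 5 h of -0.09 ± 0.06 (adjusted p = 0.267). With total counts the change passed (edgeR, adjusted p = 0.0496). In MAPKi cells CNOT9 was at 59.9, 60.6 and 63.5 CPM in vehicle and at 80.5, 81.0 and 81.3 CPM in CHX at 5 h, without overlap. The log2 change was 0.40 ± 0.06 (adjusted p = 1.17e-07), and the difference between pretreatments was 0.50 ± 0.09 (adjusted p = 1.15e-05). The CHX level in MAPKi cells stayed under every DMSO vehicle library of that time.

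CNOT6L was at 26.2, 28.1 and 28.5 CPM in DMSO vehicle at 5 h and at 16.3, 16.9 and 21.1 CPM in DMSO CHX. In MAPKi cells it was at 19.7, 20.2 and 22.9 CPM in vehicle and at 20.7, 22.8 and 23.1 CPM in CHX. The CHX libraries were therefore lower in DMSO cells and overlapped vehicle in MAPKi cells. The log2 changes over 3 and 5 h were -0.43 ± 0.13 (adjusted p = 0.00825) and 0.22 ± 0.13 (adjusted p = 0.212), and they differed by 0.65 ± 0.19 (adjusted p = 0.0118). Without replicate 1 the DMSO change no longer passed. The difference did not pass at 5 h alone, without replicate 1 or without replicate 3.

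CNOT7 was at 195, 231 and 246 CPM in DMSO vehicle at 5 h and at 176, 196 and 197 CPM in DMSO CHX, and its change over 3 and 5 h was -0.26 ± 0.06 (adjusted p = 0.000553). In MAPKi cells its log2 change was -0.08 ± 0.06 (adjusted p = 0.336). The difference between the pretreatments was 0.18 ± 0.09 (adjusted p = 0.213), but passed with total counts and without replicate 2. CNOT8 in DMSO cells gave 0.35 ± 0.15 (adjusted p = 0.0739), and CNOT1, CNOT6 and CNOT11 lay between -0.11 and 0.14 in both pretreatments. At 5 h alone CNOT8 passed in DMSO cells (edgeR, adjusted p = 0.0466) and CNOT1 was lower in MAPKi cells (edgeR, adjusted p = 0.0136). With total counts CNOT11 passed in MAPKi cells (edgeR, adjusted p = 0.0416).

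As a test of the difference itself, the change in the CHX effect between pretreatments was higher for 2 subunits, CNOT9 and CNOT6L, and lower for 0. It was higher for 4.64% and lower for 6.59% of all genes, or 693 and 985 genes, which became 1558 and 490 with total counts. The paralogue ratios, which no scaling can move, differed between the arms in DMSO cells. Log2 CNOT6L/CNOT6 at 3 and 5 h was -0.37 in vehicle and -0.74 in CHX (exact permutation, adjusted p = 0.03). Log2 CNOT8/CNOT7 was -3.12 in vehicle and -2.51 in CHX (exact permutation, adjusted p = 0.0175). In MAPKi cells the differences were 0.29 (exact permutation, adjusted p = 0.0613) and 0.03 (exact permutation, adjusted p = 0.855).

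**Figure D2:**
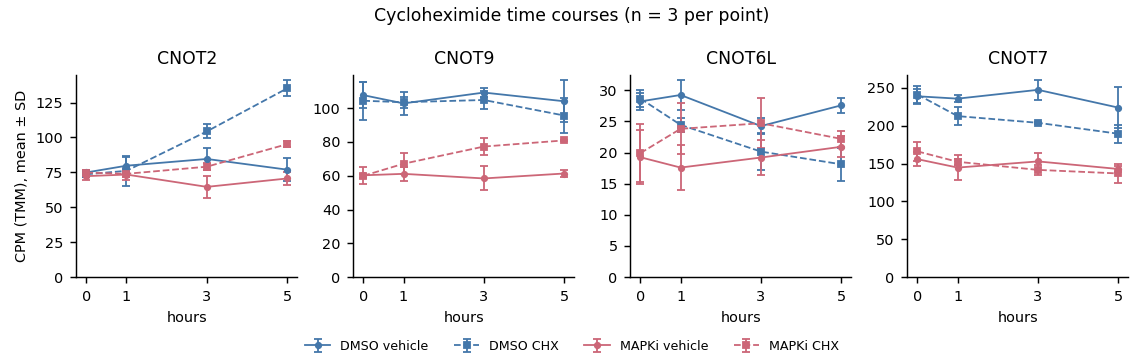
Level in CPM (TMM scaling, mean ± SD, n = 3 per point) of 4 subunit mRNAs against hours after addition, with vehicle as solid and CHX as dashed lines, DMSO in blue and MAPKi in red. CNOT2 reached 135 CPM at 5 h of CHX after DMSO and 95.2 CPM after MAPKi, while CNOT9 rose with CHX after MAPKi and overlapped vehicle after DMSO.

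Triptolide stops the synthesis of mRNA, and what is left is read against genes taken as stable. Counts were scaled by 36 stable genes, none of them a subunit, and expressed as percent of the vehicle level at 0 h of the same replicate number. Averaged over 3 and 5 h, all 8 subunits were lower in T than at the start in both pretreatments. In DMSO cells 1.3% of all genes were called higher and 48.7% lower, and in MAPKi cells 1.28% and 56.1%. The log2 changes ran from -0.29 (CNOT1) to -0.96 (CNOT6L) in DMSO cells and from -0.56 (CNOT1) to -1.27 (CNOT2) in MAPKi cells.

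These absolute changes rest on the scaling. The median of all genes was -0.47 in DMSO and -0.59 in MAPKi cells, and 0.00 and 0.05 with TMM scaling, which sets the bulk of genes to no change. The split of calls over all genes went from 195 higher and 7273 lower to 1863 and 3091 in DMSO cells, and from 191 and 8385 to 2927 and 3088 in MAPKi cells. With total counts it was 651 and 3951, and 674 and 4637. With TMM 3 subunits were called in DMSO cells, 1 higher and 2 lower, and 0 higher and 3 lower in MAPKi cells.

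Relative to the median of all genes, CNOT2 and CNOT6L declined most. On the log2 scale CNOT2 lay -0.35 from that median in DMSO and -0.68 in MAPKi cells. At 5 h of T, CNOT2 was at 45.6%, 46.9% and 55.1% of its initial level in DMSO cells and at 29.5%, 30.4% and 31.2% in MAPKi cells. The MAPKi values were all below the DMSO values. The median of all genes at that time was 65.1% ± 1.6 (SD, n = 3) and 59.2% ± 2.4 (SD, n = 3). At 3 h of T the CNOT2 values overlapped, at 54.9% to 72.2% in DMSO and 54.8% to 58.4% in MAPKi cells.

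CNOT6L lay -0.49 and -0.53 from the median of all genes in DMSO and MAPKi cells. At 5 h of T it was at 38.0%, 47.5% and 52.3% of its initial level in DMSO and at 23.2%, 32.9% and 47.9% in MAPKi cells, which overlapped. CNOT9 was at 58.2%, 60.7% and 61.2% in DMSO and at 43.96%, 46.2% and 47.8% in MAPKi cells, without overlap, and lay -0.15 and -0.35 from the median. CNOT8 was at 55.3%, 62.2% and 64.6% and at 33.9%, 38.1% and 43.9%, and lay -0.05 and -0.44 from the median. Its DMSO change of -0.52 ± 0.19 (adjusted p = 0.0157) no longer passed when replicate 1, 2 or 3 was left out.

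CNOT1 lay above the median of all genes in both pretreatments. At 5 h of T it was at 72.1%, 76.5% and 85.1% in DMSO and at 59.1%, 61.9% and 70.4% in MAPKi cells. Over 3 and 5 h it lay 0.18 and 0.03 above the median, and under TMM its change was 0.19 and 0.09. CNOT7 lay 0.00 and -0.06 from the median, CNOT6 -0.25 and -0.04, and CNOT11 -0.09 and -0.08. Under TMM the change of CNOT7 in DMSO cells and of CNOT6 in MAPKi cells turned to 0.02 each.

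The difference in T decline between pretreatments was tested as an interaction. It was lower in MAPKi cells for 1 subunit, CNOT2 (log2 -0.45 ± 0.14, adjusted p = 0.0463), and higher for 0, beside 2.76% and 0.415% of all genes. This call did not hold when replicate 1, 2 or 3 was left out, nor with TMM (range over 14 alternatives -0.75 to -0.26). With T at 0 h as initial level CNOT9 and CNOT11 were called instead of CNOT2. With vehicle at the same times as initial level CNOT9 was called instead. CNOT8 gave -0.51 ± 0.27 (adjusted p = 0.421) and CNOT9 -0.32 ± 0.12 (adjusted p = 0.162). Over all genes 62 were higher and 412 lower, against 136 and 193 with TMM, 54 and 1569 with mitochondrial rRNA, and 65 and 205 with 85 genes stable in both T and TCHX, an alternative added after the data had been seen.

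**Figure D3:**
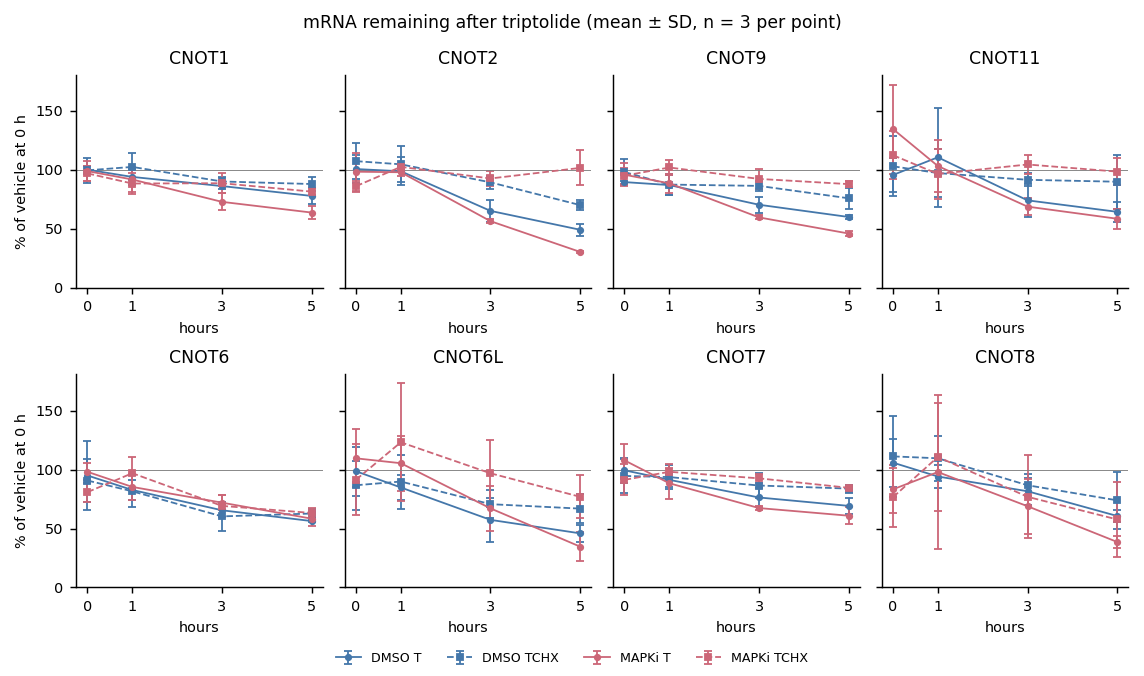
Percent of the vehicle level at 0 h (stable-gene scaling, mean ± SD, n = 3 per point) for each tested subunit against hours after triptolide, with T as solid and TCHX as dashed lines, DMSO in blue and MAPKi in red. At 5 h CNOT2 in MAPKi cells was at 30.4% in T and at 102% in TCHX, the widest gap drawn, while the lines of CNOT6 lie on each other. With TMM scaling the decline of CNOT1 in T was not seen.

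With transcription blocked and stable-gene scaling, most subunit mRNAs were higher when translation was blocked too. The 36 stable genes were chosen by their levels in T and not in TCHX. In TCHX against T over 3 and 5 h, 5 of 8 subunits were higher in DMSO cells (28.4% of all genes higher, 0.468% lower) and 6 in MAPKi cells (41.4% and 0.535%), and 0 were lower. In DMSO cells the count of 5 fell to 1, CNOT2, with TMM or with the 85 genes, and to 2, CNOT2 and CNOT9, with total counts. In MAPKi cells CNOT1 lost its call with TMM, total counts or the 85 genes, and CNOT7 with TMM. CNOT6 was called lower there with TMM (-0.36). The median change of the 8 subunits was 0.27 and 0.58, beside 0.23 and 0.34 for all genes. With TMM the calls over all genes went from 4247 higher and 70 lower to 2238 and 1044 in DMSO cells and from 6194 and 80 to 2825 and 2261 in MAPKi cells. In MAPKi cells they were 3785 and 754 with total counts and 3718 and 488 with the 85 genes.

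CNOT2 was again the subunit with the largest change. At 5 h it was at 65.4%, 70.7% and 74.3% of its initial level in TCHX in DMSO cells, above all T values given before. In MAPKi cells the TCHX values were 87.1%, 101% and 117%, around the initial level, against 29.5% to 31.2% in T alone. The log2 changes were 0.49 ± 0.08 (adjusted p = 3.33e-07) and 1.23 ± 0.08 (adjusted p = 2.22e-23). Their difference was 0.74 ± 0.11 (adjusted p = 1.3e-06), and it passed under all 12 alternatives run for it.

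CNOT9 in TCHX was at 66.0%, 79.4% and 82.3% in DMSO and at 85.7%, 87.0% and 91.1% in MAPKi cells at 5 h. Every one of these libraries was above the T libraries of its pretreatment. The log2 changes were 0.31 ± 0.07 (adjusted p = 0.000144) and 0.78 ± 0.07 (adjusted p = 3.51e-16), and the difference was 0.47 ± 0.10 (adjusted p = 0.000479). The DMSO change did not pass with TMM (0.08) or the 85 genes, and the difference did not when replicate 1 or 2 was left out. CNOT6L gave 0.40 ± 0.14 (adjusted p = 0.0217) and 0.85 ± 0.15 (adjusted p = 8.93e-07), and its DMSO change no longer passed with TMM, total counts or the 85 genes, or without replicate 1 or 3.

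CNOT11 rose by 0.39 ± 0.11 (adjusted p = 0.00309) and 0.68 ± 0.11 (adjusted p = 1.45e-07), and its DMSO change did not pass with TMM, total counts or the 85 genes. CNOT7 rose by 0.23 ± 0.07 (adjusted p = 0.00552) and 0.47 ± 0.07 (adjusted p = 1.21e-08), and its DMSO change turned to -0.00 with TMM and did not pass without replicate 1 or 3. CNOT1 rose by 0.33 ± 0.07 in MAPKi cells (adjusted p = 4.74e-05), which turned to -0.06 with TMM, and gave 0.12 ± 0.07 in DMSO cells (adjusted p = 0.203). CNOT6 gave 0.02 ± 0.10 and 0.03 ± 0.10 (adjusted p = 0.921 and 0.865), and -0.36 in MAPKi cells with TMM, where it passed (adjusted p = 0.0012). CNOT8 gave 0.19 ± 0.15 and 0.32 ± 0.16 (adjusted p = 0.39 and 0.0967).

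As an interaction, TCHX against T was higher in MAPKi than in DMSO cells for 2 subunits, CNOT2 and CNOT9, and lower for 0. The share of all genes was 6.82% higher and 0.294% lower, or 1019 and 44 genes, and 421 and 132 with TMM. The paralogue ratio CNOT6L/CNOT6 followed the same order of arms. In MAPKi cells its log2 value at 3 and 5 h was -0.73 in vehicle, -1.42 in T (exact permutation, adjusted p = 0.0233) and -0.60 in TCHX (against T, exact permutation, adjusted p = 0.0175). In DMSO cells it was -0.37, -0.81 (exact permutation, adjusted p = 0.0233) and -0.39 (exact permutation, adjusted p = 0.0778). Log2 CNOT8/CNOT7 did not pass between these arms in either pretreatment (exact permutation, adjusted p from 0.098 to 0.613). For the comparisons at 3 and 5 h the smallest p that the permutations can give is 0.005 before adjustment.

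**Figure D4:**
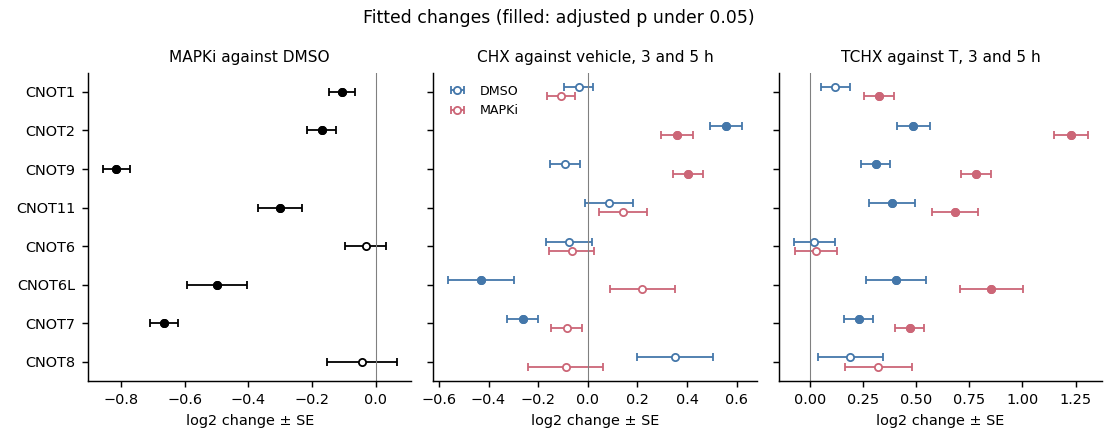
Log2 change ± SE of each tested subunit for MAPKi against DMSO in vehicle (left, TMM scaling), CHX against vehicle (middle, TMM scaling) and TCHX against T (right, stable-gene scaling), with DMSO in blue and MAPKi in red and filled points where the adjusted p was under 0.05. CNOT9 and CNOT7 lie furthest to the left under MAPKi at -0.81 and -0.67, and CNOT2 furthest to the right in TCHX against T at 1.23, while CNOT1 turned direction under other scalings on the left and on the right.

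**Figure D5:**
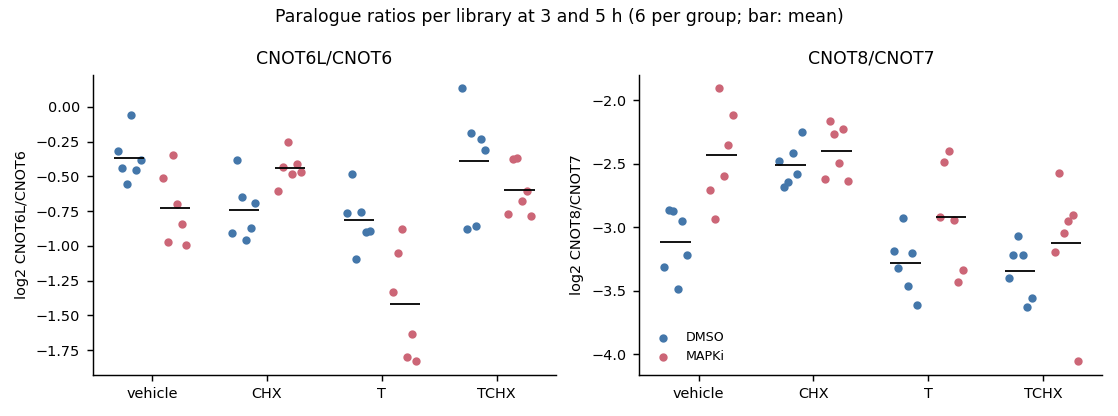
Log2 ratio of raw counts of the CCR4-type paralogues CNOT6L/CNOT6 (left) and of the CAF1-type paralogues CNOT8/CNOT7 (right) per library at 3 and 5 h, with 6 points per group and a line at the mean, DMSO in blue and MAPKi in red. CNOT6L/CNOT6 is lowest in T after MAPKi at a mean of -1.42, and CNOT8/CNOT7 is higher after MAPKi than after DMSO in vehicle.

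The translation-dependent decay index (TDD index) is the difference between TCHX and T divided by the initial level. It was compared between pretreatments by a linear model with time and replicate as terms, over 12997 genes. For CNOT2 at 5 h it was 0.19, 0.19 and 0.25 after DMSO, and after MAPKi it was 0.56, 0.71 and 0.87. For CNOT9 it was 0.05, 0.21 and 0.21 in DMSO and 0.41, 0.42 and 0.43 in MAPKi cells. The MAPKi values were above the DMSO values in both genes, and the median of all genes was 0.14 ± 0.05 (SD, n = 3) and 0.22 ± 0.02 (SD, n = 3). At 3 h the CNOT2 values overlapped, at 0.16 to 0.34 after DMSO and 0.28 to 0.43 after MAPKi. Those of CNOT9 did not, at 0.13 to 0.18 and 0.23 to 0.38.

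Fitted over 3 and 5 h, the index was higher by 0.31 ± 0.09 for CNOT2 (adjusted p = 0.216 in the limma linear model), by 0.21 ± 0.04 for CNOT9 (adjusted p = 0.107) and by 0.12 ± 0.03 for CNOT7 (adjusted p = 0.151). 0 of the 8 subunits passed, 4 had an unadjusted p under 0.05 (CNOT1, CNOT2, CNOT7 and CNOT9), and 0 passed with limma's moderated test. By the adjusted p 0.0462% of all genes were higher and 0% lower, so this test had few calls of any kind. The share of all genes at an unadjusted p under 0.05 is not given here. The 4 are therefore not read as setting the subunits apart.

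The vehicle arm and the 0 h libraries give the background of these comparisons. From 0 to 5 h in vehicle 0 subunits passed (edgeR, and 0 with DESeq2), with 1 at an unadjusted p under 0.05 (CNOT1, -0.15 ± 0.06), beside 1.67% of all genes higher and 1.57% lower. In the 3 inhibitor arms at 0 h against vehicle at 0 h 0 subunits passed (0 with DESeq2), with 1 at an unadjusted p under 0.05 (CNOT11, 0.18 ± 0.09), beside 2.84% and 1.39%. The split of those calls went from 424 and 208 genes to 268 and 268 with total counts. These shares of all genes refer to calls by the adjusted p.

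Over the 32 groups, with stable-gene scaling, 6 of the 8 subunits had their highest group mean in a CHX arm and all 8 their lowest in T at 5 h after MAPKi. CNOT2 spanned the widest range, from 1132 ± 46.4 (SD, n = 3) normalised counts in CHX at 5 h after DMSO to 162 ± 1.23 (SD, n = 3), a ratio of 6.99. In CPM with TMM scaling the same groups were the highest and the lowest, at 135 and 37.1 CPM, and the ratio was 3.64. With stable-gene scaling CNOT6L spanned a ratio of 4.75, CNOT8 4.01, CNOT9 3.98, CNOT11 3.13, CNOT7 2.53, CNOT6 1.94 and CNOT1 1.69. In CPM these ratios were 2.74, 2.08, 2.34, 1.63, 1.81, 1.47 and 1.61. In CPM 3 subunits, CNOT2, CNOT8 and CNOT11, were highest in a CHX arm and 4, CNOT2, CNOT6L, CNOT8 and CNOT9, were lowest in T at 5 h after MAPKi. CNOT1 was then highest in T at 5 h after DMSO (152 ± 5.34 CPM, SD, n = 3) and lowest in CHX at 5 h after MAPKi (94.7 ± 5.60 CPM, SD, n = 3). In the order of the 32 means most neighbours did not differ beyond their spread. Of 31 neighbouring pairs, 7 were apart by more than the larger SD for CNOT2, 4 for CNOT11, 3 for CNOT9, 2 for CNOT1 and CNOT7, 1 for CNOT6L and 0 for CNOT6 and CNOT8.

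Likeness of pattern was described by Pearson's r over the 32 group means of log2 CPM (TMM), among 8541 genes with a mean of at least 10 CPM, with no test, since the groups share treatments and libraries. The gene most like CNOT9 was MSH6, a mismatch repair protein (r = 0.987), and the gene most like CNOT7 was SFRP1, a secreted Wnt antagonist (r = 0.978). For CNOT2 it was SLC25A44 (r = 0.931), for CNOT11 LRRC47 (r = 0.931), for CNOT1 VTI1B (r = 0.879), for CNOT8 TM2D3 (r = 0.876), for CNOT6L HOXB4 (r = 0.861) and for CNOT6 ANKIB1 (r = 0.699). Among the subunits themselves CNOT7 and CNOT9 were most alike (r = 0.864), followed by CNOT9 and CNOT11 (r = 0.746). The value was -0.358 for CNOT1 and CNOT2 and 0.005 for CNOT6 and CNOT9.

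The 3′ untranslated region, where QuantSeq reads fall and where regulators bring the complex to an mRNA, differed widely between the subunits. In the MANE Select transcripts (GENCODE v44, GRCh38) it was 7044 bases long in CNOT6L, 5754 in CNOT7 and 4158 in CNOT6, against a median of 1088.5 bases over 18780 transcripts. These 3 held 26, 20 and 17 copies of ATTTA, the core letters of AU-rich elements bound by ZFP36 proteins, where the median was 2. CNOT9 held none in 2804 bases, CNOT1 and CNOT2 held 1 each, CNOT11 2 and CNOT8 3. In all 9 of the 10 subunits had at least 1, beside 68.31% of transcripts. TGTANATA, the letters of a Pumilio element, was present in 5 of 10 subunits and in 26.02% of transcripts, with the most copies in CNOT8, which had 4 in 1353 bases. These 4 sites on chromosome 5 (plus strand, GRCh38) are printed since no other subunit had more than 2, with the element in capitals.

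CNOT8 site at chr5:154875632-154875653: ctgaattTGTAAATAagtcttc
CNOT8 site at chr5:154875759-154875780: agtaaaaTGTATATAactctta
CNOT8 site at chr5:154875904-154875925: aatgggtTGTAGATActgagtc
CNOT8 site at chr5:154876726-154876747: agatgctTGTAAATActattta

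A relation between the letter counts and the decline in T was not tested. CNOT2, with 1 ATTTA, and CNOT6L, with 26, declined most relative to all genes. CNOT6 and CNOT7, with 17 and 20, lay -0.25 and 0.00 from the median of all genes in DMSO cells. In MAPKi cells these 2 lay -0.04 and -0.06 from it. Copies rise with length, and per kb they were 4.089 in CNOT6, 3.691 in CNOT6L, 3.476 in CNOT7 and 2.217 in CNOT8. CNOT11 held 2.215 per kb, CNOT1 0.993, CNOT2 0.928 and CNOT9 0. The letter counts are a description, and no binding was measured.

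Of 31 other genes of deadenylation, chosen by role but with earlier results of these data known, 30 were tested. They comprise other deadenylases and proteins related to them, poly(A)-binding proteins, and the adaptors and RNA-binding proteins that recruit CCR4-NOT. MAPKi against DMSO left 9 higher and 12 lower, near the shares of all genes (35.8% and 33.1%). The largest changes were those of NANOS1 (log2 -3.95), a partner of Pumilio proteins, of ZFP36L2 (-1.94), a protein that binds AU-rich elements, and of NOCT (-1.45), a CCR4-related protein. After MAPKi NANOS1 had only 2 to 12 and NOCT 5 to 27 counts per vehicle library, so the size of these 2 changes is uncertain. PAN2 and PAN3, the subunits of the other main deadenylase, rose by 0.71 (adjusted p = 0.000185) and 0.37 (adjusted p = 1.34e-05), opposite to the CCR4-NOT subunits that passed. PAN2 had 15 to 95 counts per DMSO vehicle library. The other listed deadenylases and related proteins did not share this rise as a group. Mean vehicle levels after DMSO and MAPKi were 59.2 and 25.0 CPM for TOE1 and 40.1 and 27.0 CPM for PDE12. They were 39.1 and 34.3 CPM for ANGEL2 and 5.78 and 6.31 CPM for ANGEL1. CNOT4, a ubiquitin ligase that associates with the complex, gave 0.10 (adjusted p = 0.355), and TNKS1BP1, another associated protein, gave -0.05 (adjusted p = 0.641). PARN, a further deadenylase, gave -0.20 ± 0.96 (adjusted p = 0.874) on few counts.

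With CHX 17 of the 30 genes were higher and 3 lower in DMSO cells, and 12 and 3 in MAPKi cells, beside 18.3% and 13.5%, and 15.9% and 13.9%, of all genes. ZFP36 (2.63 and 2.10), the founding AU-rich element binder of its family, had the largest change in both, on at most 41 counts per library. NOCT rose by 2.25 and 1.63. In DMSO cells NANOS1 fell by 1.71, and in MAPKi cells ZFP36L2 rose by 1.67. CNOT4 rose by 1.00 (adjusted p = 2.22e-09) and 0.53 (adjusted p = 0.000926), while TNKS1BP1 rose in MAPKi cells by 0.59 (adjusted p = 0.000165) and gave -0.14 in DMSO cells (adjusted p = 0.469). PAN3 rose by 0.49 in DMSO cells (adjusted p = 0.000146) and gave 0.21 in MAPKi cells (adjusted p = 0.132), and PAN2 gave 0.38 in both (adjusted p = 0.286 and 0.208). Of the interaction 3 genes were higher and 7 lower, beside 4.64% and 6.59% of all genes.

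In T 25 of the 30 genes were lower in DMSO and 24 in MAPKi cells, with 0 higher, beside 48.7% and 56.1% of all genes lower, and their median change was -0.98 and -1.16, beside -0.47 and -0.59 for all genes and -0.59 and -0.80 for the 8 subunits. TOB2, an antiproliferative adaptor, fell by 2.91 in DMSO cells and BTG1, of the same family, by 3.64 in MAPKi cells, and BTG2, ZFP36 and NOCT were left with too few counts for a fold (0 to 2 counts per library for BTG2 and 0 to 1 for ZFP36 in DMSO cells, and 0 to 12 for NOCT in MAPKi cells). CNOT4 fell by 1.30 and 1.66, TNKS1BP1 by 1.06 and 1.21, and PAN3 by 1.04 and 0.88. PAN2 gave -0.02 and 0.04 (adjusted p = 0.978 and 0.927). In TCHX against T 18 were higher and 0 lower in DMSO cells and 21 and 1 in MAPKi cells, beside 28.4% and 0.468%, and 41.4% and 0.535%, of all genes. BTG1 rose by 2.84 in MAPKi cells and NOCT by 1.70 in DMSO cells, ZFP36L1 by 1.78 and 2.57, and CNOT4 by 1.11 and 1.16. The difference between pretreatments was higher for 9 and lower for 0 genes in TCHX against T (6.82% and 0.294% of all genes), and lower for 5 and higher for 0 in the T decline (2.76% and 0.415%).

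From 0 to 5 h in vehicle 2 of the 30 genes were higher, TNRC6A (0.37) and TNRC6C (0.29), which encode scaffold proteins of microRNA complexes, and 0 were lower. In the inhibitor arms at 0 h 0 were called with edgeR, 6 had an unadjusted p under 0.05, and 0 were called with DESeq2. For the TDD index 0 of the 28 tested passed, 7 had an unadjusted p under 0.05, and 0 passed with limma's moderated test. The counts of 6 and 7 at an unadjusted p are given without the share of all genes and are not read as a result.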

How the data were processed

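Per the labels and the study's methods, cytoplasmic RNA of A375 cells was extracted after each treatment and 500 ng were used for QuantSeq libraries with ERCC spike-in (not used here). The authors trimmed reads with fastp 0.20.1, aligned them to GRCh38.p13 with HISAT2 2.2.1 and counted them per gene with HTSeq 0.13.5, and the deposited values are raw counts. The strand setting and molecular identifiers are not given in the sources used here, and precision is limited by counting and library spread.

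The 10 members and all gene lists were chosen with earlier results of these data known. Named were all members, 5 fixed genes of the deadenylation list and the 3 with the largest change per comparison, and for likeness 1 gene per member. Counts were tested with edgeR 4.0.16 (R 4.3.3; filterByExpr, quasi-likelihood, two-sided, 1 mean per group over all 96 libraries, Benjamini-Hochberg, threshold 0.05), TMM scaling without triptolide and, with it, DESeq2 1.42.0 size factors over genes with over 0.2 CPM at 0 h in vehicle that were at least 1.1 times as high in T at 3 and 5 h in every replicate. The TDD index used limma 3.58.1 without moderation. Ratios used a pseudocount of 0.5. Normalised counts are counts divided by the size factors. Alternatives were other scalings, filters, times, initial levels, tools and left-out replicates. Tests were checked on simulated counts. No pair of libraries of a group agreed within sampling noise.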

Additional observations from a re-analysis of the deposited data

Results flagged for a closer look

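For 3 subunits a response differed between the pretreatments, by an edgeR quasi-likelihood test of the difference itself with Benjamini-Hochberg adjustment over 14948 genes. The change of CNOT9 with CHX was higher after MAPKi than after DMSO by 0.50 on the log2 scale (adjusted p = 1.15e-05), and that of CNOT6L by 0.65 (adjusted p = 0.0118). The difference for CNOT9 lay between 0.12 and 0.65 over 10 alternatives and was called in all but that at 1 h alone. The difference for CNOT6L lay between 0.65 and 0.80 and was not called in 4 of 10. These were 1 h alone, 5 h alone, without replicate 1 and without replicate 3.

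The change of CNOT2 in TCHX against T was higher after MAPKi by 0.74 (adjusted p = 1.3e-06) and was called under all 12 alternatives. That of CNOT9 was higher by 0.47 (adjusted p = 0.000479) and lost its call when replicate 1 or 2 was left out. The decline of CNOT2 in T differed by -0.45 (adjusted p = 0.0463) and was not called in 9 of 14 alternatives. Among these were those without replicate 1, 2 or 3 and those with another initial level. These contrasts share libraries, since the T libraries enter both the decline and TCHX against T.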

How the results depend on the processing

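Of 1136 values of single subunits under alternatives 1050 kept their call or lack of one, 62 lost it, 13 gained one and 11 turned. For MAPKi against DMSO 6 subunits became 4 at 0 h alone and with total counts, and 5 with DESeq2 size factors, without the filter, or without replicate 1, 2 or 3. Other numbers of subunits called moved as follows. With CHX at 1 h alone it went from 3 in DMSO, 2 in MAPKi cells and 2 for their difference to 0 in each, and for the difference it was 1 without replicate 1 or 3. In T it went from 8 to 3 in both pretreatments with TMM and to 4 in DMSO cells with total counts. For the difference in T decline it went from 1, CNOT2, to 2 with T at 0 h as initial level. Those 2 were CNOT9 and CNOT11, and CNOT2 was not called. With vehicle at the same times as initial level the number stayed at 1, but the subunit was CNOT9. With mitochondrial rRNA scaling it was 3, CNOT1, CNOT2 and CNOT9. It was 0 with TMM, without the filter, with stable genes at 3 or 5 h and with the 85 added genes. It was also 0 without replicate 1, 2 or 3. In TCHX against T in DMSO cells it went from 5 to 1 with TMM, 1 with the 85 genes and 2 with total counts, and ranged from 3 to 5 when a replicate was left out. For the difference in TCHX against T it was 1 to 2 when a replicate was left out.

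Called values that turned were, with TMM, those of CNOT1 (0.19) and CNOT7 (0.015) in T in DMSO cells, CNOT1 (0.087) and CNOT6 (0.020) in T in MAPKi cells, CNOT7 (-0.0040) in TCHX against T in DMSO cells, and CNOT1 (-0.063) and CNOT6 (-0.36) in MAPKi cells. With total counts CNOT1 turned for MAPKi against DMSO (0.037) and in T in DMSO cells (0.032). CNOT1 turned at 0 h alone for MAPKi against DMSO (0.0087), and CNOT2 with CHX at 1 h alone in DMSO cells (-0.064). The cause was not tested, except that TMM sets the bulk of genes to no change. Of the 14 ratio comparisons 7 passed, and 0 to 2 when a replicate was left out. Those at 3 and 5 h cannot then give a p under 0.0556, while those of MAPKi against DMSO can reach 0.00154.

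Replicate numbers were not taken as pairs, since the labels do not say what a number stands for, although each number has its own prefix in the library names. Over 1488 same-numbered pairs the deviations from the group means correlated between -0.31 and 0.33, 259 pairs were over 0.1, and 64 of 96 libraries were closest to their own number, a hint from the data that numbers may be shared in part. Initial levels and the TDD index used the number, since the study computed the index per replicate. A replicate block left 6 subunits lower for MAPKi against DMSO, 3 and 2 called with CHX, 8 and 8 in T, 5 and 6 in TCHX against T, and changed no count of subunits. Counts of genes called over the whole table moved by over 1.5 times as follows. With CHX at 1 h alone 4744 became 12 in DMSO cells, 4465 became 11 in MAPKi cells and 1678 became 3 for their difference, which was 767 to 1153 without a replicate. For MAPKi against DMSO 10311 became 6865 at 0 h alone. In T, 7468 became 4954 with TMM and 4602 with total counts in DMSO cells, and 8576 became 5311 with total counts in MAPKi cells. For the difference in T decline 474 became 1623 with mitochondrial rRNA, 1364 with vehicle at the same times, 270 with the 85 genes and 113 to 330 without a replicate. In TCHX against T in DMSO cells 4317 became 2843 with the 85 genes and 2831 without replicate 3, and for the difference 1063 became 590 with the 85 genes, 553 with TMM and 400 to 674 without a replicate. For the TDD index 6 with the block became 28 without it, 18 with total counts, 3 with T at 0 h as initial level, 0 with TMM or moderation, and 0 to 1 without a replicate. Without a replicate, vehicle at 5 h against 0 h went from 485 to between 174 and 232, and the arms at 0 h from 632 to between 197 and 260. Stable genes that also rise in TCHX were not run, since 1 gene was left. The 85 genes, stable in T and TCHX at 3 or 5 h, were chosen after seeing the data.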
